A study of Mus musculus with 20 samples.

Results

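The 29 genes described here carry fatty acids into the heart muscle cell and burn them in its mitochondria. They were taken by gene name from the authors' deposited comparisons, and all 29 stood among the 26214 genes listed in both tables. The RNA came from the heart apex of 20 uninjured mice of the strain FVB/NRj, wild-type and 28 days old, which had received AAV9, an adeno-associated virus used to deliver genes to the heart, by retro-orbital injection. The 4 groups of 5 mice were hTNNT2 Zeb2os (3 males of 5), hTNNT2 control (0 males), CMV Zeb2os (1 male) and CMV control (2 males). Zeb2os is the long noncoding RNA read antisense to Zeb2. The hTNNT2 promoter of cardiac troponin T is active in cardiomyocytes, and the CMV promoter is active in most cell types. The labels do not say what the control vectors carried, and all 20 mice, controls included, had received AAV9.

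Long-chain fatty acids are the main fuel of the adult heart. They are released from circulating triglyceride, taken up, bound, linked to coenzyme A and passed through the mitochondrial membranes as carnitine esters. In the matrix, each round of beta-oxidation removes one acetyl-CoA, and the electrons pass through the electron transfer flavoprotein into the respiratory chain. Many of these genes are targets of the nuclear receptor PPARα and rise in the mouse heart during the first weeks after birth.

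With neither promoter did any of the 29 genes pass the test, and every estimate was small on the deposited scale, whose limits are given below. With hTNNT2, 0 of 29 reached an adjusted p below 0.05 in the table deposited by the authors, where 0.0385% of the 18169 genes with an adjusted p did (7 genes). With CMV, 0 of 29 passed in the authors' deposited table, where 0.00469% of 21318 genes did (1 gene). At an unadjusted p under 0.05, the hTNNT2 comparison held 1 of the 29 (Cpt1a, higher), beside 3.92% of 21461 genes. The CMV comparison held 0 of the 29 at that level, beside 1.67% of 21318 genes. Log2 fold changes of Zeb2os over control ran from -0.14 to 0.16 with hTNNT2 and from -0.092 to 0.070 with CMV in the authors' deposited tables. In both tables Cpt1b stood lowest and Cpt1a highest. The 95% intervals, taken as 1 gene's estimate and its standard error (SE), lay within -0.30 to 0.29 with hTNNT2 and within -0.22 to 0.21 with CMV. They spanned 0 for 28 of 29 genes with hTNNT2 and for 29 of 29 with CMV.

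Zeb2os RNA itself was higher with both vectors, and the scale of the tables has limits that bear on every value here. Zeb2os stood 4.53 ± 0.083 (SE) higher on the log2 scale with hTNNT2 and 3.66 ± 0.071 higher with CMV in the authors' deposited tables (5 against 5 mice each). The tables hold 1 estimate and 1 SE per gene and no value per mouse, so no spread between single mice can be shown, and the depth of single libraries is unknown. Median SEs fell to 0.0073 with hTNNT2 and 0.0054 with CMV for genes under a mean normalised count of 1 in the authors' deposited tables, against 0.079 and 0.068 at mean counts of 100 to 1000. Y-linked genes, in an hTNNT2 comparison of 3 males of 5 with 0 of 5, stood at only 0.013 to 0.019 in the authors' deposited table, at mean counts of 574 to 2533. Intervals on the deposited scale therefore do not bound the plain ratio between groups.

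The RNA of the pathway was abundant, and its genes differed widely in level. Levels are the authors' mean normalised count over the 10 mice of a comparison, divided here by the kilobases of annotated exon. Ratios of levels between genes, here and below, depend on that choice of length. Fabp3, the heart's fatty acid binding protein, was first with 46259 counts per kilobase in the hTNNT2 table and 39872 in the CMV table. Acadl followed with 30030 and 25330, Lpl with 20988 and 18084, and Cd36 with 20366 and 17097 counts per kilobase in the hTNNT2 and the CMV table. Lpl has 10478 annotated exonic bases but a longest transcript of 4115 bases, while both lengths are 823 for Fabp3. Per kilobase of the longest transcript, Lpl stood above Fabp3 with both promoters, so the first place depends on the length used. Middle places went to genes such as Cpt2 (3189 and 2645), Pdk4 (3107 and 2164) and Hadhb (1644 and 1433 counts per kilobase). The lowest places were those of Cpt1a (351 and 303), Ucp3 (281 and 224), Acot1 (36.5 and 34.6) and Cpt1b (34.6 and 27.0 counts per kilobase). The highest level was 1338 times the lowest in the hTNNT2 table and 1478 times in the CMV table. The lowest, Cpt1b, shares 81.4% of its exonic bases with another gene on the same strand, so its level and this range are uncertain. Neighbours in this order could not be compared against a spread between mice. The 29 genes held 1.53% of all summed mean counts in the hTNNT2 table and 1.51% in the CMV table. Of the 200 genes with the highest mean count, 8 were among them in each of the authors' deposited tables, with Lpl in place 13 of all genes.

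**Figure D1:**
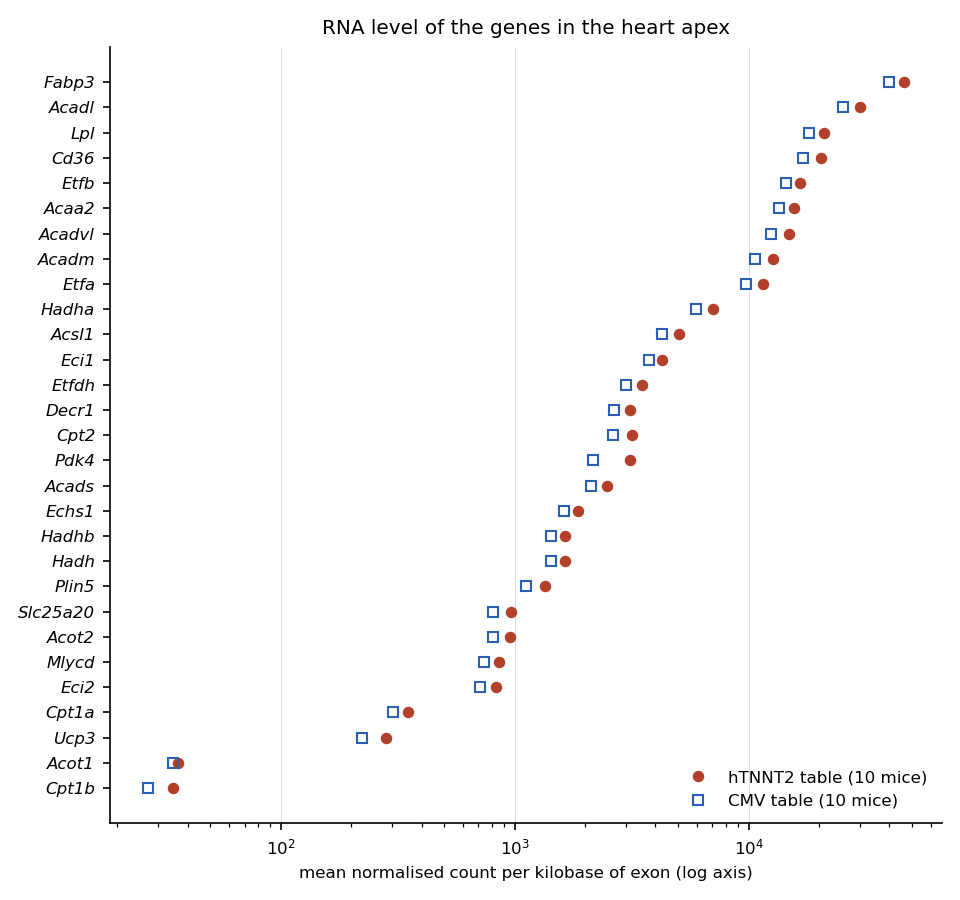
Mean normalised count per kilobase of annotated exon for the 29 genes (log axis), with filled circles for the hTNNT2 table and open squares for the CMV table, each a mean over 10 mice with no spread given. Fabp3 is highest at 46259 and 39872, Cpt1b lowest at 34.6 and 27.0, and the tables keep nearly the same order; they were normalised separately, so the shift between symbols of 1 gene is no test.

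Uptake and binding genes gave small positive values of like size with hTNNT2. Lpl, the lipase that frees fatty acids from lipoproteins at the vessel wall, stood at 0.060 ± 0.070 (log2 fold change ± SE) with hTNNT2 and at 0.013 ± 0.062 with CMV in the authors' deposited tables. Cd36, the main fatty acid carrier of the muscle cell surface, stood at 0.056 ± 0.070 with hTNNT2 and at -0.041 ± 0.061 with CMV in the same deposited tables. Fabp3 stood at 0.061 ± 0.081 with hTNNT2 and at 0.0014 ± 0.070 with CMV. Thus 3 of 3 lay above 0 with hTNNT2 and 2 of 3 with CMV, and each value was smaller than its own SE. Part of Fabp3 is repeated elsewhere: 37.3% of its 50-base words also occur in other genes, and 29.2% in the pseudogene Fabp3-ps1. Genes on the opposite strand share 19.6% of its exonic bases, so its count is uncertain. Acsl1, which joins long-chain fatty acids to coenzyme A, stood at -0.014 ± 0.077 with hTNNT2 and 0.032 ± 0.053 with CMV in the authors' deposited tables.

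The carnitine shuttle held both ends of the range. Cpt1a and Cpt1b encode the liver and muscle forms of carnitine palmitoyltransferase 1, the regulated entry step of mitochondrial fatty acid oxidation. Cpt1a (chromosome 19, 3322334 to 3385733, plus strand, GRCm38) had a mean count of 2685 in the hTNNT2 table and 2318 in the CMV table. Its log2 fold change was 0.16 ± 0.065 with hTNNT2 in the authors' deposited table, a 1.12-fold higher level on that scale (95% interval 1.03 to 1.22), with an authors' adjusted p of 0.829. With CMV it was 0.070 ± 0.070 in the authors' deposited table (1.05-fold, 95% interval 0.955 to 1.15), with an adjusted p of 1. The gene was above 0 with both promoters, and neither value passed the test across genes. Its promoter is shown because Cpt1a had the largest estimate of the 29. It is given from 250 bases before to 50 after the RefSeq start, with capitals for matches on either strand to the CCAAT box, the GC box (GGGCGG), the receptor hexamer (AGGTCA) or the TATA box (TATAAA). In the GENCODE M21 annotation the gene begins earlier, at 3322334, so the whole window lies inside the gene there.
Cpt1a promoter, GRCm38.p6, chr19:3323051-3323350, plus strand: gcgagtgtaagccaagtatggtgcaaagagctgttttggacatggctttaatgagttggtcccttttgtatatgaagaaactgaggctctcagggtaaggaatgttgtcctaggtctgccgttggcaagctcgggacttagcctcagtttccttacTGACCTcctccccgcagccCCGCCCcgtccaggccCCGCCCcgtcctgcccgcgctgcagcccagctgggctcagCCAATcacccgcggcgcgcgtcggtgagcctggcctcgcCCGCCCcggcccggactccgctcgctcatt
It held 3 GC boxes, 1 CCAAT box and 1 hexamer. The hexamer is bound by PPARα and related receptors, PPARα with its partner on 2 copies with 1 base between them.

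Cpt1b (chromosome 15, 89416405 to 89425863, minus strand, GRCm38) was the lowest of the 29 in both tables. Its log2 fold change was -0.14 ± 0.083 with hTNNT2 and -0.092 ± 0.063 with CMV in the authors' deposited tables, each with an adjusted p of 1. Its mean count was 117 in the hTNNT2 table and 91.0 in the CMV table. Cpt1a was thus 10.2 times Cpt1b per kilobase in the hTNNT2 table and 11.2 times in the CMV table, although the muscle form is known as the main one of the adult heart. The predicted gene Gm44502 shares 81.4% of the exonic bases of Cpt1b on the same strand and is listed at 0 in both of the authors' deposited tables. Chkb, the neighbour that Gm44502 also spans, shares 50.7% of its exonic bases with it and had mean counts of 25.03 with hTNNT2 and 18.84 with CMV in the authors' deposited tables. How the authors counted reads that fit more than one gene is not stated, and its part in the level of Cpt1b was not tested.

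The other shuttle genes lay near 0. Mlycd, which removes the malonyl-CoA that inhibits carnitine palmitoyltransferase 1, stood at 0.060 ± 0.082 with hTNNT2 and -0.00068 ± 0.070 with CMV in the authors' deposited tables. Slc25a20, the carnitine carrier of the inner membrane, stood at 0.00062 ± 0.079 and 0.025 ± 0.064 with hTNNT2 and CMV in the same deposited tables. Cpt2, which hands the acyl group back to coenzyme A in the matrix, stood at -0.013 ± 0.081 with hTNNT2 and 0.043 ± 0.064 with CMV. Of the 5 shuttle genes, 3 lay above 0 with each promoter.

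**Figure D2:**
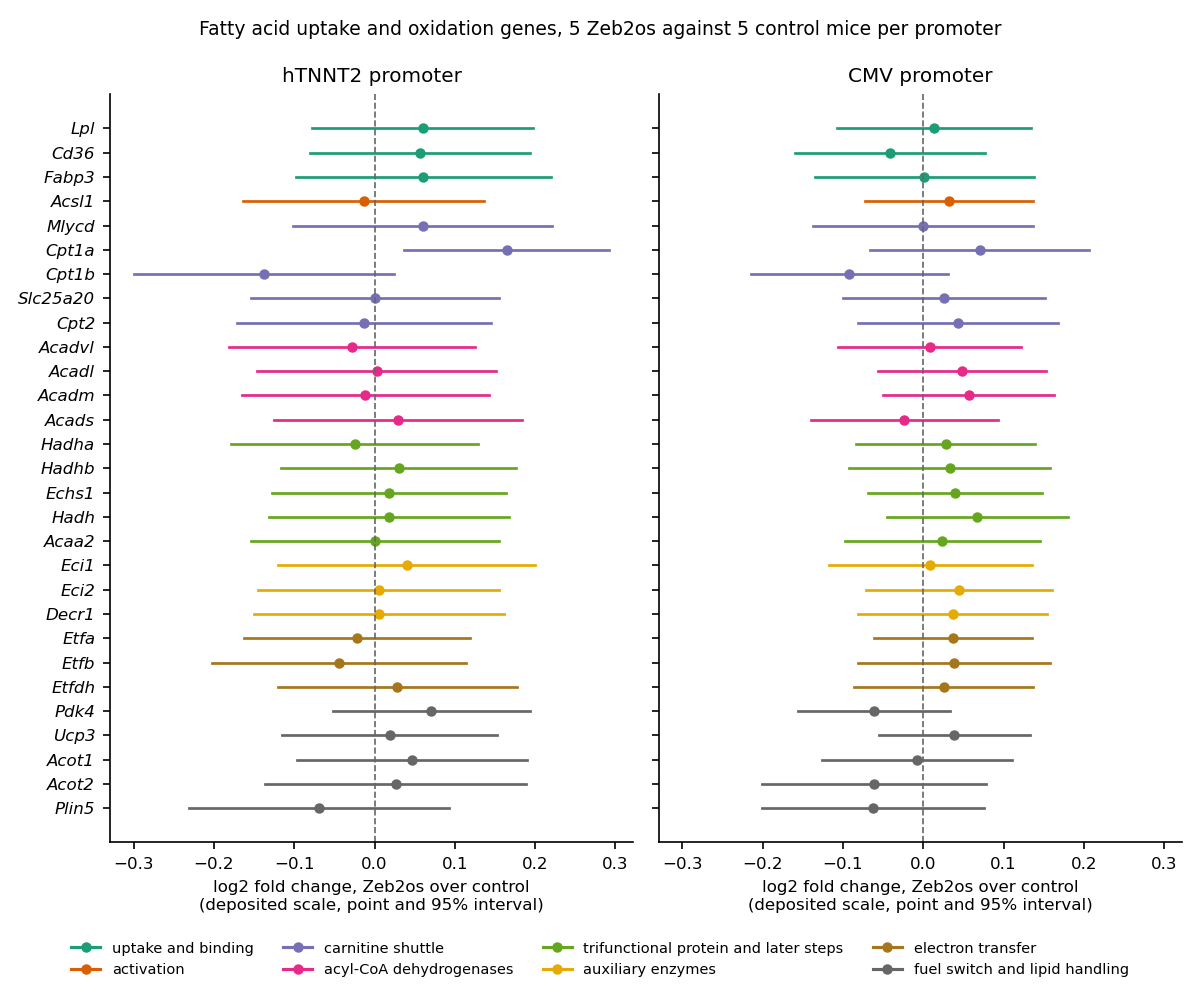
Log2 fold change of Zeb2os over control for the 29 genes (points) with 95% intervals (bars), on the authors' deposited scale, with the hTNNT2 comparison on the left and CMV on the right (5 against 5 mice each) and colours for the steps of the pathway. Only the interval of Cpt1a with hTNNT2 (0.037 to 0.29) leaves 0 out, and its adjusted p of 0.829 did not pass.

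The acyl-CoA dehydrogenases start each round of beta-oxidation, from very long to short chains. With hTNNT2, their log2 fold changes were -0.028 ± 0.078 for Acadvl, 0.0026 ± 0.076 for Acadl, -0.012 ± 0.078 for Acadm and 0.029 ± 0.079 for Acads in the authors' deposited table. With CMV they were 0.0079 ± 0.058 for Acadvl, 0.048 ± 0.053 for Acadl, 0.057 ± 0.054 for Acadm and -0.023 ± 0.059 for Acads in the authors' deposited table. Thus 2 of 4 lay above 0 with hTNNT2 and 3 of 4 with CMV. Acadm alone had an estimate beyond its SE, with CMV. Dvl2 overlaps 42.9% of the exonic bases of Acadvl on the opposite strand at mean counts of 377 in the hTNNT2 and 325 in the CMV table of the authors, far below the 39837 and 33494 of Acadvl.

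Later steps of the cycle lay close to 0 as well. Hadha and Hadhb form the mitochondrial trifunctional protein, which carries out the last 3 steps on long chains. Hadha stood at -0.025 ± 0.078 with hTNNT2 and 0.028 ± 0.057 with CMV in the authors' deposited tables, and Hadhb at 0.030 ± 0.075 with hTNNT2 and 0.033 ± 0.064 with CMV. The partners lie head to head on chromosome 5, and 272 bases separate their RefSeq starts (Hadha at 30154980 on the minus strand, Hadhb at 30155253 on the plus strand). The stretch common to both promoter windows lies between these 2 RefSeq starts. In the GENCODE M21 annotation, Hadha extends to 30155162 and Hadhb begins at 30155248, so part of the stretch lies inside Hadha there. The stretch is shown because it belongs to the promoter window of each subunit of 1 enzyme, with capitals as for Cpt1a.
Hadha and Hadhb shared window, GRCm38.p6, chr5:30155003-30155230, plus strand: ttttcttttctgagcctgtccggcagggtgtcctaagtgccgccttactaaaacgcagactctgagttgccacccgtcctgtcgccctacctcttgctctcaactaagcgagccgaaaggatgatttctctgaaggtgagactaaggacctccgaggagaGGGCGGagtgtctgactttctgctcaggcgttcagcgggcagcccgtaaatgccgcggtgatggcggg
It held 1 GGGCGG match and none of the other motifs searched. Hadha was 4.28 times Hadhb per kilobase in the hTNNT2 table and 4.17 times in the CMV table. The ratio depends on the length used, since annotated exons cover 8730 and 6595 bases and the longest transcripts 4017 and 4388. Besides, 18.1% of the 50-base words of Hadhb are repeated in Gm13910, so that its count is uncertain.

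Short-chain hydration is the role of Echs1, which stood at 0.018 ± 0.074 with hTNNT2 and 0.039 ± 0.055 with CMV in the authors' deposited tables. Hadh, the medium- and short-chain hydroxyacyl-CoA dehydrogenase, stood at 0.018 ± 0.076 with hTNNT2 and 0.068 ± 0.057 with CMV in the same deposited tables. The thiolase Acaa2 stood at 0.00015 ± 0.079 with hTNNT2 and 0.024 ± 0.062 with CMV. Of these 5 genes, 4 lay above 0 with hTNNT2 and 5 with CMV, where Hadh alone was beyond its SE. Auxiliary enzymes of unsaturated fatty acids, the isomerases Eci1 and Eci2 and the reductase Decr1, lay between 0.0052 and 0.040 with hTNNT2 and between 0.0088 and 0.044 with CMV in the authors' deposited tables, all 3 above 0 with each promoter.

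Electron transfer genes had opposite signs with the 2 promoters for 2 of 3 genes. Etfa and Etfb, the subunits of the electron transfer flavoprotein, stood at -0.022 ± 0.072 and -0.044 ± 0.081 with hTNNT2 in the authors' deposited table. With CMV they stood at 0.037 ± 0.050 and 0.038 ± 0.061 in the authors' deposited table. Etfdh, which passes their electrons to ubiquinone, stood at 0.029 ± 0.076 with hTNNT2 and 0.025 ± 0.057 with CMV. All 6 values were smaller than their SE. Etfb shares 58.2% of its exonic bases on the same strand with the predicted gene Gm45233 and with Mir7051, so that its count is uncertain.

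Genes of fuel choice and lipid handling lay mostly above 0 with hTNNT2 (4 of 5) and below 0 with CMV (1 of 5 above). Pdk4, the kinase that shuts off pyruvate dehydrogenase when fat is burnt, stood at 0.070 ± 0.063 with hTNNT2 and -0.062 ± 0.048 with CMV in the authors' deposited tables. Acot2, a mitochondrial acyl-CoA thioesterase, stood at 0.027 ± 0.083 with hTNNT2 and -0.061 ± 0.071 with CMV, and its cytosolic relative Acot1 at 0.047 ± 0.073 and -0.0081 ± 0.060, in the same deposited tables. These relatives share sequence: 24.5% of the 50-base words of Acot2 occur in Acot1 and 13.6% of those of Acot1 in Acot2, and Acot2 was 26.2 times Acot1 per kilobase in the hTNNT2 table and 23.4 times in the CMV table. Ucp3, an uncoupling protein of the inner membrane, stood at 0.019 ± 0.068 with hTNNT2 and 0.039 ± 0.048 with CMV in the authors' deposited tables. Plin5, the lipid droplet coat protein of oxidative tissues, stood at -0.069 ± 0.083 with hTNNT2 and -0.063 ± 0.071 with CMV in the same tables. Pdk4 (chromosome 6, 5483351 to 5496309, minus strand, GRCm38) is shown with its promoter because its response differed most between the promoters, with capitals as for Cpt1a.
Pdk4 promoter, GRCm38.p6, chr6:5496229-5496528, minus strand: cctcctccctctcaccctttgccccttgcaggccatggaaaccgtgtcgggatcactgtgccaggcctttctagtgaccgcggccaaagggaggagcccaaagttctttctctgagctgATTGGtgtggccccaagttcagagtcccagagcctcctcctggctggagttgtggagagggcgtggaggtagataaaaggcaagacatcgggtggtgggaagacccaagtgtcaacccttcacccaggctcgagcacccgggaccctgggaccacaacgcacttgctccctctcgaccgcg
It held 1 CCAAT match and none of the other motifs searched.

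Promoter windows were found for 25 of the 29 genes, 27 windows in all. AGGTCA on either strand was in 8 of 27 windows, and in 16.3% of all 32851 RefSeq promoter windows of the same length. These 8 windows belong to 7 genes: Acadm, Acadvl, Cd36, Cpt1a, Echs1, Plin5 and Ucp3. A pair of AGGTCA with 1 base between was in 0 of 27 and in 0.0396% of all windows. The GC box was in 18 of 27 (17 genes) and in 35.7% of all, and the CCAAT box in 13 of 27 and in 37.4% of all. The windows of Hadha and Hadhb overlap, so the GC box in their common stretch counts for each. The TATA sequence TATAAA was in 0 of 27 and in 13.6% of all windows. The pair counts its copies of AGGTCA again, and no other motif holds a whole one of the rest. A match is a run of letters and not a site shown to be bound.

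The question whether the cardiomyocyte promoter and the general promoter gave different responses was asked of each gene by the hTNNT2 minus CMV log2 fold change. Of the 29 genes, 0 differed at an adjusted p under 0.05, beside 0.00482% of the 20754 genes tested in both tables (1 gene). At an unadjusted p under 0.05 the count was also 0 of 29, beside 2.65% of those genes. Pdk4 had the largest difference, 0.13 ± 0.079 (95% interval -0.023 to 0.29), with an adjusted p of 1. Next came Cd36 with 0.098 ± 0.093 (95% interval -0.084 to 0.28), Cpt1a with 0.094 ± 0.095 (-0.093 to 0.28) and Acot2 with 0.087 ± 0.11 (-0.13 to 0.30). At the other end, Etfb had -0.083 ± 0.10 (95% interval -0.28 to 0.12) and Acadm -0.068 ± 0.096 (-0.26 to 0.12). All 29 intervals spanned 0, and none was narrow enough to show equal responses. The Zeb2os and control arms held 3 and 0 males of 5 with hTNNT2, and 1 and 2 with CMV. Mean counts of Zeb2os were 43281 with hTNNT2 and 4138 with CMV. Promoter, sex and Zeb2os level therefore cannot be told apart in this difference.

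**Figure D3:**
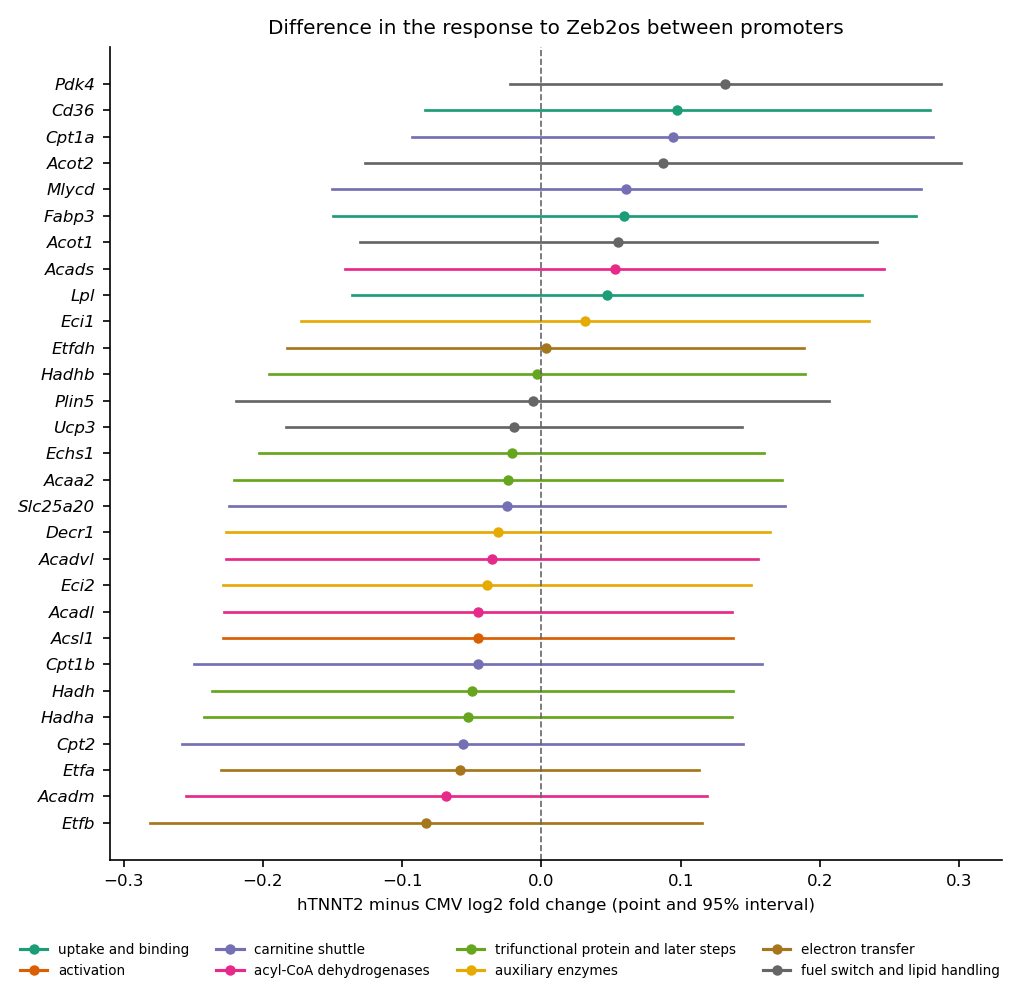
Difference in log2 fold change, hTNNT2 minus CMV, for the 29 genes (points) with 95% intervals (bars), in order of the difference and coloured by step of the pathway. Pdk4 (0.13) is at the top and Etfb (-0.083) at the bottom, and all 29 intervals span 0.

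Direction was read against genes with a mean count of 1000 or more, which 26 of the 29 reached in each table. This floor does not match the genes for abundance. With hTNNT2, 20 of 29 (69.0%) lay above 0 in the authors' deposited table, with a median of 0.018, beside 42.9% of 6152 abundant genes (mean count 1000 or more in both tables), with a median of -0.010. With CMV, 21 of 29 (72.4%) lay above 0 in the authors' deposited table, with a median of 0.025, beside 58.2% of 6154 such genes, with a median of 0.0087. Over all genes with a p, 47.0% lay above 0 with hTNNT2 and 48.3% with CMV, with medians of -0.00080 and -0.00016. In size, the values of the 29 lay below those of abundant genes with hTNNT2 and not with CMV. Their median absolute log2 fold change was 0.028 with hTNNT2 and 0.037 with CMV, against 0.040 and 0.029 for abundant genes in the authors' deposited tables. Estimates beyond 1 SE numbered 3 of 29 with hTNNT2 and 5 of 29 with CMV, against 27.5% and 18.8% of abundant genes. With the trend of fold change over mean count removed, 24 of 29 lay above 0 with hTNNT2 and 17 of 29 with CMV. Signs then changed for Acsl1, Cpt2, Acadm and Hadha with hTNNT2 and for Lpl, Fabp3, Acadvl and Eci1 with CMV, in no case by more than the gene's SE. As deposited, both promoters gave the same direction for 16 genes, of which 14 lay above 0 and 2 (Cpt1b and Plin5) below, a share of 55.2% beside 50.8% of 6152 abundant genes. The other genes comprised 6 above 0 with hTNNT2 and below with CMV, and 7 the other way round.

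Pathway neighbours outside the 29 genes were described from 7 lists with 61 genes. None of the 61 passed the adjusted test with either promoter. With hTNNT2, 27 lay above 0 and 34 below in the authors' deposited table, and with CMV 38 above and 23 below. Of the lipid droplet and triglyceride genes, 3 of 10 lay above 0 with hTNNT2 and 8 of 10 with CMV. G0s2, the inhibitor of adipose triglyceride lipase, stood at -0.29 ± 0.081 with hTNNT2 (adjusted p 0.207) and 0.034 ± 0.070 with CMV (adjusted p 1) in the authors' deposited tables. Dgat1, which makes triglyceride, stood at -0.21 ± 0.068 with hTNNT2 (adjusted p 0.454) and -0.085 ± 0.069 with CMV (adjusted p 1) in the same deposited tables. The difference between promoters was -0.32 ± 0.11 for G0s2, with an adjusted p of 1.

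Of 9 regulators of the pathway, 1 lay above 0 with hTNNT2 and 7 with CMV. Ppargc1b, a coactivator of these genes, stood at -0.11 ± 0.062 with hTNNT2 and 0.010 ± 0.062 with CMV, and the nuclear receptor Esrra at -0.090 ± 0.079 with hTNNT2 and -0.041 ± 0.058 with CMV, in the authors' deposited tables.

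Other uptake and activation genes lay above 0 for 8 of 13 with hTNNT2 and 5 of 13 with CMV. Angptl4, an inhibitor of Lpl, stood at 0.16 ± 0.073 with hTNNT2 and 0.051 ± 0.045 with CMV, and the synthetase Acsl3 at -0.039 ± 0.079 with hTNNT2 and -0.10 ± 0.068 with CMV, in the authors' deposited tables. For carnitine and malonyl-CoA genes the counts were 2 of 5 with hTNNT2 and 1 of 5 with CMV. The carnitine transporter Slc22a5 stood at -0.097 ± 0.069 with hTNNT2 and -0.016 ± 0.058 with CMV, and Cpt1c, the neuronal relative of Cpt1a, at 0.0049 ± 0.082 with hTNNT2 and -0.075 ± 0.068 with CMV, in the authors' deposited tables. Each of these 4 genes had an adjusted p of 1 with both promoters. Other mitochondrial oxidation genes lay above 0 for 4 of 9 with hTNNT2 and 8 of 9 with CMV. Among them, Hsd17b10, a hydroxyacyl-CoA dehydrogenase, stood at -0.0019 ± 0.079 with hTNNT2 and 0.093 ± 0.056 with CMV, and the thioesterase Acot9 at 0.084 ± 0.060 with hTNNT2 and 0.0057 ± 0.045 with CMV, in the authors' deposited tables. Peroxisomal oxidation genes lay above 0 for 6 of 12 with hTNNT2 and 8 of 12 with CMV. Abcd2, a peroxisomal fatty acid transporter, stood at -0.062 ± 0.079 with hTNNT2 and 0.10 ± 0.063 with CMV, and Crot, the peroxisomal carnitine octanoyltransferase, at 0.018 ± 0.057 with hTNNT2 and 0.070 ± 0.050 with CMV, in the authors' deposited tables.

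**Figure D4:**
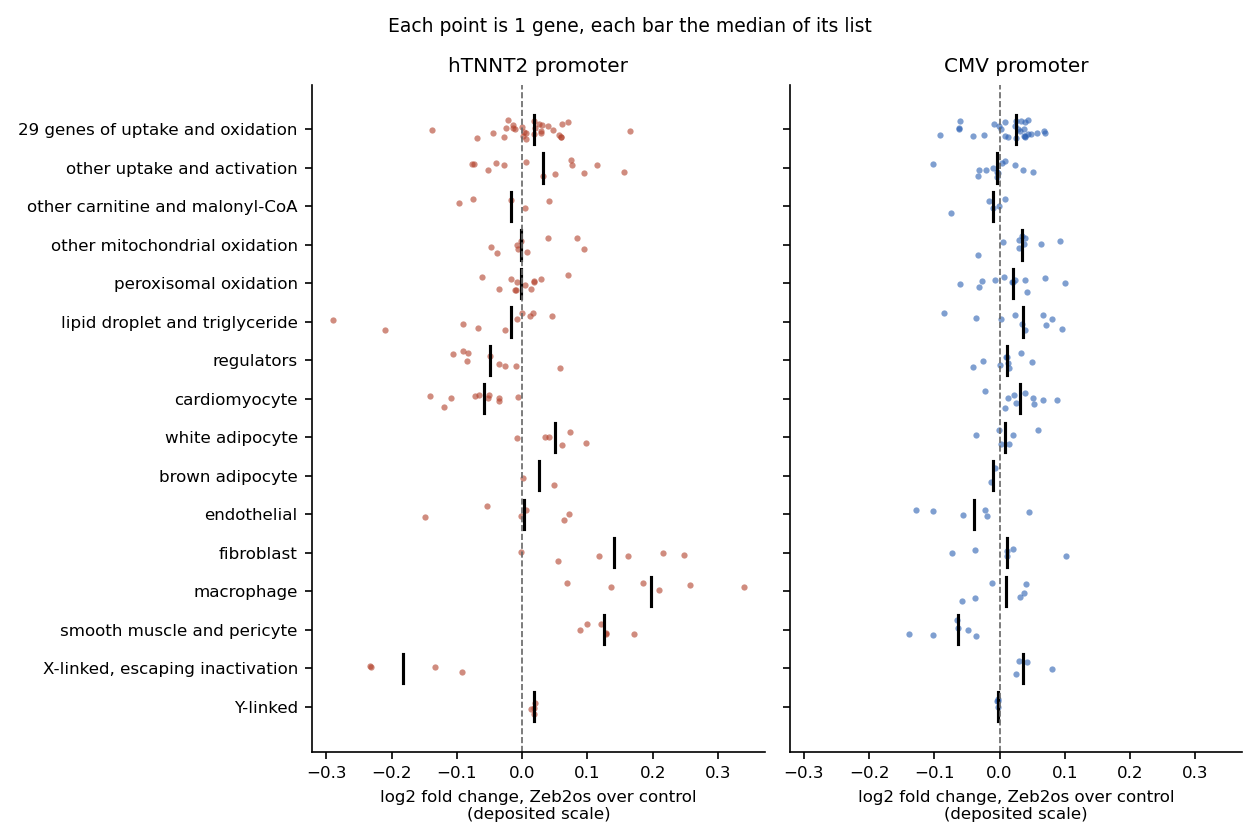
Log2 fold change of Zeb2os over control for the genes of the lists described here (points) with the list's median (bar), on the authors' deposited scale, with hTNNT2 on the left and CMV on the right. The 29 genes sit close to 0 at medians of 0.018 and 0.025, while with hTNNT2 the macrophage list has a median of 0.20 and the X-linked list one of -0.18.

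With hTNNT2, several marker lists of other cell types lay further from 0 than the oxidation genes. In bulk RNA, fewer cells of a type and less RNA per cell cannot be told apart. The 10 cardiomyocyte markers had mean counts from 114643 up in the hTNNT2 table and from 96016 up in the CMV table of the authors, as the label of heart tissue calls for. Of these 10 markers, 0 lay above 0 with hTNNT2 (median -0.059) and 9 with CMV (median 0.032) in the authors' deposited tables. Ryr2, the calcium release channel, stood at -0.14 ± 0.067 with hTNNT2 and -0.022 ± 0.053 with CMV in the same tables, and Myl2, the ventricular myosin light chain, at -0.036 ± 0.078 and 0.089 ± 0.059. The cardiomyocyte list thus lay on opposite sides of 0 with the 2 promoters, and none of its genes passed the test. Macrophage markers lay above 0 for 6 of 6 with hTNNT2 (median 0.20) and 3 of 6 with CMV (median 0.010) in the authors' deposited tables. Lyz2 among them rose with hTNNT2 (0.34 ± 0.071, adjusted p 0.0154) in the authors' deposited table and stood at 0.041 ± 0.069 with CMV. Of the marker genes, Lyz2 was the one that passed. Fibroblast markers lay above 0 for 5 of 6 with hTNNT2 (median 0.14) and 4 of 6 with CMV (median 0.011). Smooth muscle and pericyte markers did so for 6 of 6 with hTNNT2 (median 0.12) and 0 of 6 with CMV (median -0.064), and endothelial markers for 3 of 6 and 1 of 6.

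Adipocytes express several of the 29 genes as well, among them Lpl, Cd36 and Plin5. White adipocyte markers summed to mean counts of 82.8 in the hTNNT2 table and 61.9 in the CMV table of the authors, against 219915 and 189488 for Lpl alone. They lay above 0 for 5 of 6 with hTNNT2 and 4 of 6 with CMV. Of the 2 brown adipocyte genes, Ucp1 had mean counts of 0.83 and 0.47 in the authors' deposited hTNNT2 and CMV tables. Cidea, the other, had mean counts of 389 and 350 there. It stood at 0.049 ± 0.083 with hTNNT2 and -0.013 ± 0.071 with CMV. X-linked genes that escape inactivation lay above 0 for 0 of 4 with hTNNT2 (median -0.18) and 4 of 4 with CMV (median 0.036). With hTNNT2 the Zeb2os arm held 3 males of 5 and the control arm 0, so sex and Zeb2os cannot be told apart there, and the part of sex or of cell make-up in the values of the 29 genes was not tested.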

How the data were processed

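Ribosome-depleted total RNA was sequenced, per the labels' protocols. The submitters' processing notes name Trim Galore for the authors' trimming, DESeq2 for the authors' comparisons and GRCm38 and mm10 as builds. They name no aligner, read counter, strand setting or version. There was 1 table per promoter. Per the file headers, the authors deposited each gene's mean normalised count over 10 mice, a signal that is never negative, with a log2 fold change and its SE, a Wald statistic (a score), a p-value and an adjusted p-value. In no row did the deposited statistic have the sign of the fold change, so the statistic runs the other way, and directions were read from the fold change. Mean counts summed to 51284500 (hTNNT2) and 44295600 (CMV). The tables were normalised separately. Mice within a group were taken as separate animals.

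Fold changes, SEs, p-values and adjusted p-values were used as the authors deposited them. Intervals at 95% were computed from the estimate and the SE. The difference between promoters was set against its combined SE (the square root of both squared SEs added up), with a 2-sided normal p adjusted by the Benjamini-Hochberg method over 20754 genes. Lists were described by counts and medians, with no test. Exon lengths and overlaps came from GENCODE M21 on GRCm38, and promoters from RefSeq on GRCm38.p6. The 29 genes and all lists were chosen with earlier results of these data known. All 29 genes and the brown adipocyte genes Ucp1 and Cidea are named. Of each further pathway list but 1, whose genes are not reported here, and of the cardiomyocyte and macrophage marker lists, genes with the smallest unadjusted p in either table are named, at most 2 per list. Alternatives were other thresholds, adjustment sets, centring, removal of the trend with mean count, an empirical null and transcript length. Python 3.11.15, numpy 2.4.6, pandas 2.3.3, scipy 1.17.1 and matplotlib 3.10.9 were used.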

Additional observations from a re-analysis of the deposited data

How the results depend on the processing

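The counts of 0 genes passing the test with hTNNT2 and with CMV stayed at 0 under every alternative run for them: adjusted p under 0.01 or 0.10, adjustment over all genes with a p or over mean counts of at least 50, centring on the median gene, and an empirical null. The count of 0 between promoters stayed at 0 at an adjusted p under 0.10, over mean counts of at least 50, with centring, and with the difference taken between the statistics. Under the empirical null, the smallest adjusted p among the 29 was 0.533 (Cpt1a, hTNNT2). The medians kept their sign. With the trend over mean count removed, the median was 0.032 with hTNNT2 and 0.0068 with CMV, and the genes above 0 numbered 24 with hTNNT2 and 17 with CMV. No gene moved by more than its SE. Dividing by the longest transcript moved 1 gene by over 3 places in the order of levels, and put Lpl above Fabp3. Leaving out single mice was not run, since the tables hold no values per mouse. No paired analysis was possible because the columns carry no mouse numbers. Changes that the deposited scale shrinks, and responses of single cell types, are beyond what these tables resolve.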

Other observations

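Pdk4 also had the highest ratio of overall level between the tables among the 29 genes. Its mean normalised count was 10908 in the hTNNT2 table and 7599 in the CMV table of the authors, a ratio of 1.44. The median gene had a ratio of 1.16 and the median of the 29 genes one of 1.18, and Cpt1b (1.28) and Ucp3 (1.26) came next among them. Of 6152 genes whose mean count reached 1000 in both tables, 4 (0.0650%), Pdk4 included, had a ratio at least as high as that of Pdk4. Among these were Zeb2os itself (mean counts of 43281 with hTNNT2 and 4138 with CMV) and Zeb2 (8631 and 5953). Each mean pools the Zeb2os and control mice of a promoter and the tables were normalised separately, so this is a description with no test, and promoter, cohort and normalisation cannot be told apart.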
